A study of Mus musculus with 9 samples.

Results

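The 5 arrays analysed here profile wild-type LSK cells, a stem and progenitor fraction of mouse bone marrow. They are the arrays labelled Abi-1 WT among the 9 arrays of the study, and no Abi1 knockout array enters any value below. Each WT array is a separate mouse, named WT1 to WT5 after its replicate number. The mice carried the floxed Abi1 allele, Abi1(fl/fl), and lacked the Mx1-cre transgene, so the allele had no Cre to recombine it. Like the other mice of the study, they had been given poly(I:C), a double-stranded RNA mimic that induces interferon, in 3 injections at 8 to 9 weeks of age, and marrow was taken at 12 to 14 weeks. "Wild type" is therefore a floxed, Cre-negative, poly(I:C)-treated animal. Marrow depleted of mature lineages was sorted by flow cytometry for c-Kit and Sca-1, and the cells were frozen. RNA from the sorted cells, 5 ng per sample, was preamplified, labelled with biotin and hybridised to Affymetrix whole-transcript arrays.

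LSK cells lack the surface proteins of mature blood lineages and carry c-Kit and Sca-1. The fraction holds the haematopoietic stem cells together with multipotent progenitors, which outnumber them and are already biased toward lymphoid, myeloid or megakaryocyte and erythroid fates. A few transcription factors of the GATA, RUNX, ETS and homeobox families keep stem cells in place, while cytokine receptors and their JAK, RAS and PI3 kinase pathways set survival and division. An array signal per gene averages over all of these cells, so fewer cells of a type and less RNA per cell cannot be told apart.

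A gene was measured where a probeset carried its symbol and no other, which gave 30142 genes. Signals are on the log2 scale as deposited. Probesets differ in how well they bind their transcript, so a rank below is a rank of signals and not of transcript numbers. Background was set in each array at the percentile 95 of 1717 genes with symbols starting in Olfr or Vmn, which encode smell and pheromone receptors of sensory neurons, and lay between 5.29 and 5.37. With limma, 15331 genes (50.9%) had a signal above that background at an adjusted p under 0.05, and 13267 (44.0%) had one below it. Without a test, 15210 genes (50.5%) exceeded it in all 5 arrays. The receptor genes themselves were called above in 59 of 1717 cases, or 3.44%, a low share that follows from the percentile rule. The median standard error of a called gene's level above background was 0.07 (n = 5). The absolute number depends on the reference: with the percentile 95 of the probesets marked as negative controls in place of receptor genes, 2021 genes were above. That reference lay between 10.78 and 12.27, above the median of the positive control probesets in WT1, WT4 and WT5.

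WT5 stood apart from the other 4 arrays. Across genes, its median correlation with the others was 0.9893, against 0.9931 to 0.9947 for WT1 to WT4, where genes are not independent replicates. Its negative control probesets had a median of 6.89, against 6.20 to 6.47, and the chance that a positive control exceeded a negative one was 0.756, against 0.803 to 0.822. It held the lowest value of 35.6% of the 16077 genes with a mean above background and the highest value of 21.3%. For the genes of wide spread that vary mainly through WT5, the SD is given with and without it, and the part of these control values in them was not tested.

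The gate itself could be checked on 1 of its genes. Kit, the stem cell factor receptor c-Kit, gave 14.70, 14.75, 14.39, 14.78 and 14.74 in WT1 to WT5. That mean, 14.67 ± 0.16 (SD, n = 5), stood above 98.1% of all genes, and the 5 arrays lay within 0.39 of each other. Ly6a, which encodes Sca-1, had no probeset of its own. Of 15 measured genes of proteins that lineage staining commonly targets, 5 were above background, 5 below and 5 not called either way. The highest was Itgam, the integrin chain CD11b, at 7.47 ± 0.16, and the T cell coreceptor gene Cd8a was the lowest at 4.11 ± 0.09. Abi1, the adaptor whose floxed allele these mice carry, read 11.65, 11.49, 11.50, 11.56 and 11.53, a level 6.22 ± 0.03 (SE) above background. Of the sex-linked genes, the Y-chromosome genes Uty, Eif2s3y and Kdm5d had means of 9.25, 9.14 and 8.95, and Xist, the X-inactivation RNA, stayed at 4.73 in all 5 arrays.

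**Figure D1:**
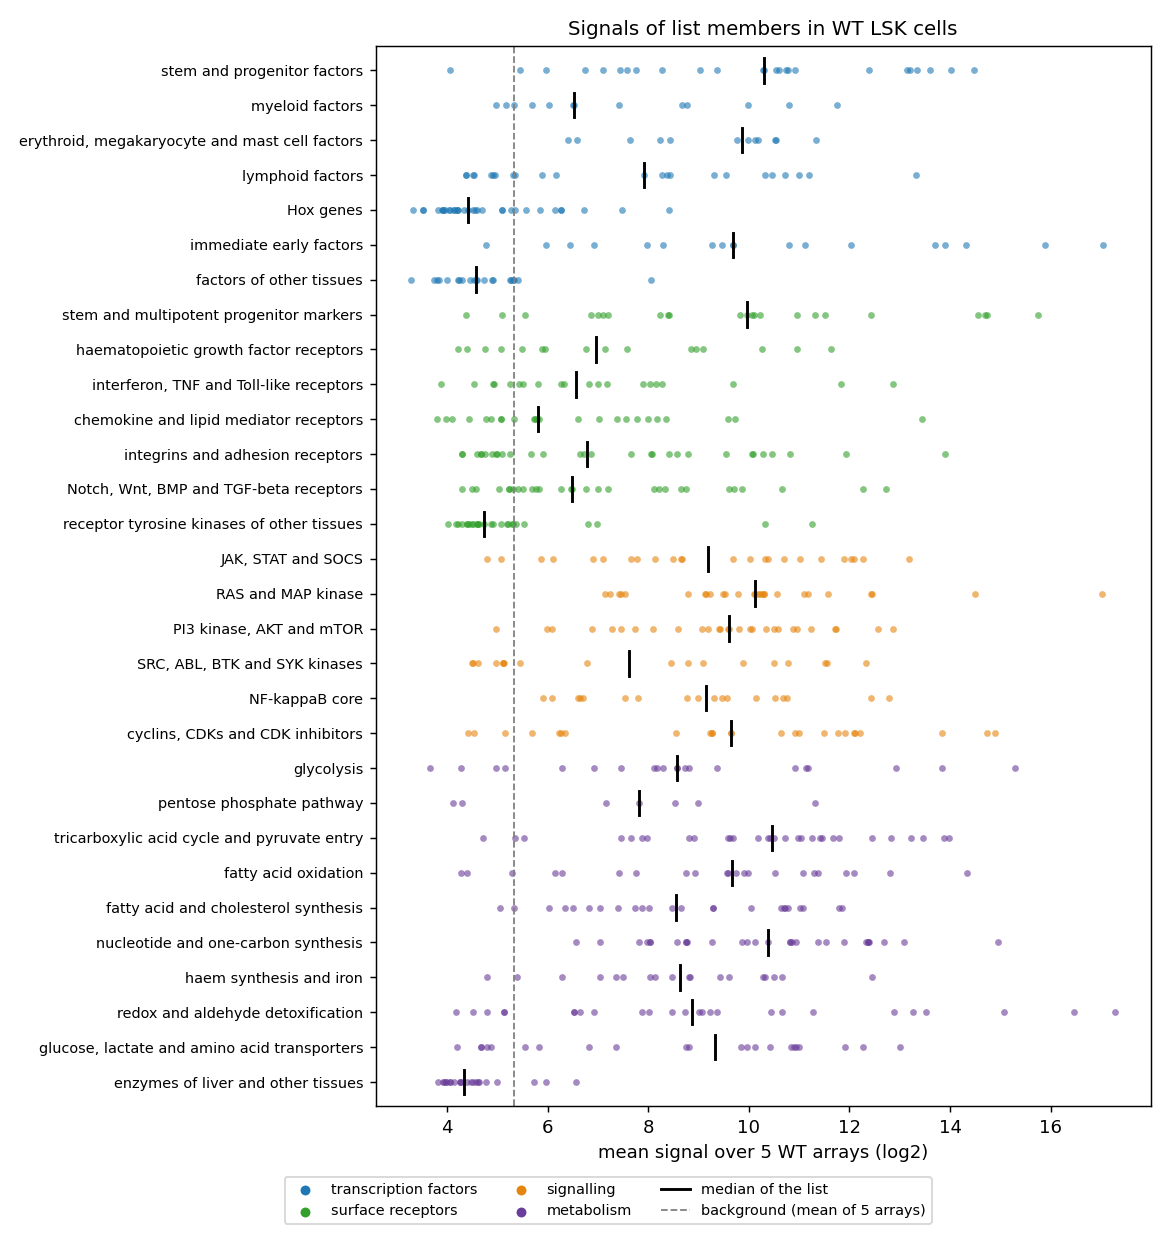
Mean log2 signal over 5 WT arrays (x axis) of the measured members of the transcription factor, surface receptor, signalling and metabolism lists (y axis), with 1 signalling list not shown. Points are genes, black ticks are list medians and the dashed line is the mean background of 5.33. Most signalling and metabolic genes lie to the right of the line, and most Hox genes, factors of other tissues, receptor tyrosine kinases of other tissues and enzymes of liver and other tissues lie to its left.

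The 4 classes differed in how many members gave a signal. Signalling genes were above background in 151 of 166 cases (91.0%) and metabolic genes in 177 of 221 (80.1%), beside 50.9% of all genes. Surface receptors were above in 106 of 169 cases (62.7%) and transcription factors in 84 of 145 (57.9%). The transcription factor class also counts Dntt and Rag2 of its lymphoid list, which encode a polymerase and a recombinase subunit. The median member ranked above 82.8% of all genes for signalling, 77.3% for metabolism, 60.6% for surface receptors and 59.3% for transcription factors. Against the negative control probesets the counts were 29, 31, 11 and 14 in the same order. The transcription factor, receptor and metabolism lists include genes of other tissues for contrast, and the signalling lists do not. The order of the classes therefore depends on how the lists were made, and the counts by list below separate the contrast genes. Each of those counts is of measured members and is to be read beside the 50.9% of all genes.

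Transcription factors of stem and progenitor cells gave signals nearly throughout, 23 of 25 above background, with a list median of 10.30. Etv6, an ETS-family repressor needed for adult stem cells in marrow, led the list at 14.41, 14.41, 14.21, 14.59 and 14.71. Myb, which sustains progenitor proliferation, gave 14.05, 13.96, 13.96, 13.86 and 14.22. Myc, the growth regulator, gave 13.67, 13.43, 13.67, 13.67 and 13.55. Their arrays lay within 0.50, 0.36 and 0.24 of each other. Fli1, another ETS factor, stood at 13.21 ± 0.20, Meis1, a homeobox partner of Hox proteins, at 13.14 ± 0.32, and Runx1, the core-binding factor that opens definitive haematopoiesis, at 12.38 ± 0.26. Gata2 stood at 10.79 ± 0.36 and Tal1 at 9.03 ± 0.07. Gfi1, a zinc-finger repressor, was not called either way at 5.45 ± 0.14 (adjusted p = 0.0882, limma), and Sox17, a factor of fetal stem cells, was below background at 4.07.

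Factors of different lineages were counted beside the 50.9% of all genes above background. Of the erythroid, megakaryocyte and mast cell factors, 12 of 12 were above, led by Zfpm1 (FOG1, the partner of GATA1) at 11.34 ± 0.68, or ± 0.33 without WT5. Gata1 itself was the lowest of them at 6.41 ± 0.32, with 6.56, 6.67, 6.59, 6.34 and 5.89 in WT1 to WT5. Myeloid factors were above in 9 of 13 cases (69.2%). Cebpa, which commits progenitors to granulocytes and monocytes, led these at 11.74 ± 0.34, and Batf3 and Nfil3, which act in dendritic and innate lymphoid cell development, were below, the call of Batf3 being lost without WT1, WT2 or WT4. Lymphoid factors were above in 14 of 23 cases (60.9%) and below in 7. Ikzf1 (Ikaros) led at 13.33 ± 0.08, followed by Xbp1, a factor of antibody secretion, at 11.20 ± 0.34. Dntt, the template-independent polymerase of antigen receptor joining, came next at 10.17, 10.44, 11.12, 11.75 and 11.46. The lowest were Rag2, the recombinase subunit, and Lef1, a T cell factor, which both averaged 4.38.

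Of 39 Hox genes listed, 33 were measured, and the rest had no probeset with their symbol alone. The measured ones lay mostly below background, with 8 of 33 above background and a median of 4.42. The highest of the 33 were members of the A cluster, Hoxa6 at 8.41 ± 0.74, Hoxa5 at 7.48 ± 0.80 and Hoxa2 at 6.72 ± 0.45. Hoxa6 read 7.88, 7.81, 7.97, 8.96 and 9.44, and Hoxa5 read 7.17, 6.69, 7.09, 7.68 and 8.77. WT4 and WT5 were thus the high arrays for both, and without WT5 the SD of Hoxa5 was 0.41. Hoxb13 and Hoxd13, genes of the posterior body axis, were the lowest at 3.33 and 3.52. Of factors that define other tissues, 1 of 21 was above background, Hnf4a of liver and gut at 8.06 ± 0.13, and the pluripotency factor Sox2 was the lowest of the 21 at 3.29.

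Immediate early factors, which cells switch on within minutes of a stimulus, gave some of the brightest signals of any regulator. Above background were 17 of 18, with Fosl1 as the exception. Fosb, a FOS-family subunit of AP-1, read 17.63, 16.33, 16.08, 17.53 and 17.58, and Jun, its partner, read 16.41, 15.36, 14.95, 16.34 and 16.34. Fos, the prototype of the family, read 14.73, 13.73, 13.71, 14.72 and 14.65. In all of these WT2 and WT3 were the low arrays, a split picked after the values were seen and not counted over all genes. The mean deviation of the list's 17 genes from their own means was 0.53, -0.64, -0.77, 0.51 and 0.37 in WT1 to WT5. WT3 held the lowest value of 12 of the 17 and WT2 of the other 5, where each held the lowest value of 14.5% and 14.4% of all genes above background. The widest swings were those of Klf2, a quiescence factor, at 10.94, 7.54, 8.96, 10.60 and 9.27, and the nuclear receptor Nr4a1 at 14.87, 13.02, 11.97, 14.97 and 14.69.

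**Figure D2:**
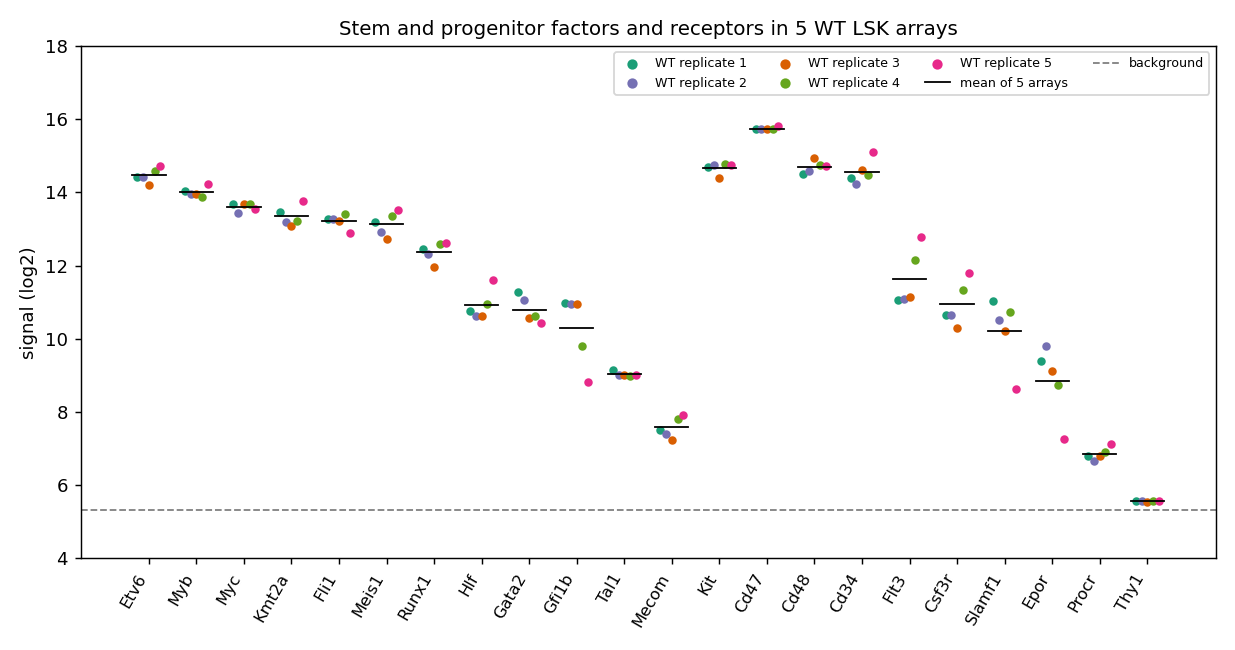
Log2 signal (y axis) of stem and progenitor transcription factors and of receptors and markers (x axis) in each of 5 WT arrays. Coloured points are arrays, black lines their mean and the dashed line is background. Etv6, Myb, Myc and Kit lie close together in all arrays, while Gfi1b, Slamf1 and Epor have WT5 as their lowest point and Flt3 and Cd34 have it as their highest.

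At the cell surface, markers of stem cells and multipotent progenitors were above background in 21 of 23 cases, with a median of 9.96. Cd47, the signal that protects cells from phagocytosis, was the brightest at 15.72, 15.73, 15.72, 15.72 and 15.80. Cd63, a tetraspanin of late endosomes, averaged 14.74 ± 0.22 and Cd48, which marks multipotent progenitors apart from most stem cells, averaged 14.70 ± 0.17. Cd34 read 14.40, 14.24, 14.60, 14.48 and 15.09. Slamf1, which encodes the stem cell marker CD150, read 11.04, 10.51, 10.21, 10.72 and 8.63. WT5 was the highest array for Cd34 and the lowest for Slamf1. The SD of Slamf1 was 0.94 over the 5 arrays and 0.35 without WT5, and that of Cd34 was 0.32 and 0.15. Prom1 (CD133) and the endothelial cadherin Cdh5 were the markers below background.

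Of 22 listed receptors of haematopoietic growth factors, 16 were measured and 12 of these (75.0%) were above background. Kit, at 14.67, was counted as a gate gene and not among them. Flt3, the receptor of FLT3 ligand that distinguishes lymphoid-biased multipotent progenitors, led the 16 at 11.05, 11.08, 11.14, 12.15 and 12.78. Csf3r, the G-CSF receptor, had 10.66, 10.66, 10.30, 11.32 and 11.80. Flt3 and Csf3r were both highest in WT5 and second highest in WT4. That order was picked after the values were seen and was not counted over all genes. WT5 held the highest value of 21.3% of all genes with a mean above background. Epor, the erythropoietin receptor, read 9.39, 9.79, 9.11, 8.73 and 7.25, the opposite order at its ends, with WT5 lowest. Il6st, the shared gp130 chain, averaged 10.25 ± 0.39. Il9r and Osmr were below background at 4.40 and 4.23. Without WT5 the SD of Flt3 went from 0.79 to 0.53, that of Csf3r from 0.60 to 0.42 and that of Epor from 0.98 to 0.45.

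Among chemokine and lipid mediator receptors, 15 of 24 (62.5%) were above background, beside 50.9% of all genes. Cxcr4, which holds stem cells in the marrow through CXCL12, stood far above the rest at 13.74, 13.00, 13.85, 13.77 and 12.89, and S1pr4, a sphingosine phosphate receptor, came next at 9.73 ± 0.27. Integrins and other adhesion receptors were above in 18 of 30 cases, led by Selplg, the P-selectin ligand that lets progenitors roll on endothelium, at 13.90 ± 0.15, and by Itga4 and Itga5, the fibronectin receptor chains, at 11.93 ± 0.13 and 10.81 ± 0.29. Receptors of interferons, TNF and Toll-like ligands were above in 14 of 20 cases (70.0%). Ifnar2 averaged 12.86 ± 0.21 and Ifngr1 11.83 ± 0.68, with the low value of Ifngr1, 10.66, in WT5 and the other 4 between 11.94 and 12.36, an SD of 0.22 without WT5. Tlr8 and Tlr13, sensors of RNA, were below background.

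The Notch, Wnt, BMP and TGF-beta receptors were above background in 21 of 29 cases, and the named ends of the list were Bmpr2 at 12.72 ± 0.24 and Notch2 at 12.27 ± 0.20 against Bmpr1a at 4.31 and Fzd10 at 4.50. Bmpr2 encodes the type II and Bmpr1a a type I chain of the BMP receptor. Receptor tyrosine kinases of other tissues were above in 5 of 27 cases. Igf1r, the IGF-1 receptor, was the highest at 11.25 ± 0.09. Pdgfrb, a gene of pericytes and stroma, followed at 10.34, 10.41, 9.93, 10.41 and 10.51, whereas Ntrk2 and Musk, of neurons and muscle, were below background at 4.19 and 4.03.

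Signalling genes, the class without a contrast list of other tissues, had the highest share above background. RAS and MAP kinase genes were above in 27 of 27 cases and the NF-kappaB core in 18 of 18. Dusp1, a phosphatase that switches MAP kinases off and is itself induced within minutes, was among the brightest genes at 17.46, 16.76, 16.59, 17.30 and 17.01. Dusp6, which acts on ERK, read 15.33, 14.20, 13.19, 14.78 and 14.95. In both, WT2 and WT3 were again the lowest arrays. Nras averaged 12.44 ± 0.09, and Gab1, a docking protein, was the lowest of the list at 7.15 ± 0.13. In the NF-kappaB list, the inhibitor Nfkbia averaged 12.79 ± 0.37 and the subunit Rel 12.42 ± 0.64. Tnfaip3 (A20), a feedback inhibitor, varied most at 12.20, 10.47, 9.49, 10.99 and 9.41.

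JAK, STAT and SOCS genes were above background in 22 of 24 cases. Jak1 was the highest at 13.18, 13.14, 13.14, 13.32 and 13.16, followed by the phosphatase Ptpn6 (SHP-1) at 12.28 ± 0.24. The exceptions were the feedback inhibitors Socs1 and Socs3, at 5.08 ± 0.11 and 4.80 ± 0.11, which are transcribed in response to cytokine signals. PI3 kinase, AKT and mTOR genes were above in 27 of 28 cases, from the regulatory subunit Pik3r1 at 12.87 ± 0.17 and the mTOR activator Rheb at 12.58 ± 0.11 down to Pik3r3, which was below at 4.97. The kinases of the SRC, ABL, BTK and SYK families were divided, 11 of 18 above (61.1%, beside 50.9% of all genes) and 7 below. Ptk2b (PYK2) at 12.32 ± 0.40, Btk at 11.54 ± 0.12 and Fes at 11.50 ± 0.18 led, and Bmx and Frk were lowest at 4.52 and 4.49.

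Among other signalling genes, Rac2, the haematopoietic RAC, averaged 15.14 ± 0.11, and Cdc42 held 13.93, 13.90, 13.90, 13.97 and 13.90. Rhob, an immediate early GTPase gene, varied more, at 15.71, 13.38, 13.96, 15.23 and 14.03, with WT2 and WT3 lowest. Wasf2, the WAVE protein whose complex includes ABI1, stood at 11.74 ± 0.06, while its relative Wasf1 gave 4.31 in all 5 arrays. Cyclins, CDKs and their inhibitors were above background in 22 of 25 cases. The G1 kinases Cdk6 and Cdk4 averaged 14.89 ± 0.11 and 14.72 ± 0.09, and Ccnd2, their cyclin D partner, 13.84 ± 0.15. Cdkn2a, which encodes p16 and ARF, was below background at 4.54 ± 0.08. Cdkn1a (p21) read 12.93, 11.44, 10.91, 12.28 and 12.01, again lowest in WT3 and WT2.

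Metabolic genes gave signals in most pathways. All 29 measured genes of nucleotide and one-carbon synthesis were above background, with a median of 10.39, as were 28 of 30 of the tricarboxylic acid cycle, with a median of 10.46. Prps1, which makes the ribose donor of nucleotides, led the first list at 14.95 ± 0.10, followed by the mitochondrial serine enzyme Shmt2 at 13.09 ± 0.36. Pdhb, a pyruvate dehydrogenase subunit, led the second at 14.28, 14.13, 14.00, 14.06 and 13.40. Pcx, which feeds the cycle from pyruvate, was not called at 5.35 ± 0.20, and Pdk4, the fasting-induced brake on pyruvate dehydrogenase, was below background at 4.71. WT5 held the lowest value of 21 of 29 genes in each of these lists, beside 35.6% of all genes, and the list deviations in WT5 were -0.29 and -0.27 while the other arrays lay between -0.05 and 0.20.

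Glycolysis genes were above background in 17 of 21 cases. Gapdh averaged 15.29 ± 0.10 and Tpi1 13.84 ± 0.08, and the isoenzymes below background included the muscle form Pgam2 at 4.29 and the testis form Pgk2 at 3.66. Fatty acid oxidation genes were above in 19 of 22. Cpt1a, the carnitine transferase that admits fatty acids to mitochondria, led them at 14.23, 14.34, 14.23, 14.64 and 14.23, with WT4 above the rest, and the nuclear receptor genes Ppara and Pparg were below background at 4.39 and 4.29. Fatty acid and cholesterol synthesis genes were above in 22 of 24, led by Fasn, the fatty acid synthase, at 11.86 ± 0.32, while the desaturase Scd1 was not called at 5.34 and Scd3 was below. In the pentose phosphate pathway 5 of 7 were above, the others being the transketolase-like genes Tktl1 and Tktl2.

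Redox genes were above background in 21 of 26 cases and held the brightest metabolic signals. Sod1, the cytosolic superoxide dismutase, read 17.34, 17.31, 17.36, 17.31 and 17.09, Gpx1, a glutathione peroxidase, averaged 16.45 ± 0.09 and the thioredoxin Txn1 15.07 ± 0.13. Aldh1a1, whose activity is used to enrich stem cells, was of moderate signal at 8.55, 8.66, 7.89, 7.44 and 6.85. Haem and iron genes were above in 16 of 18. The ferritin light chain Ftl1 averaged 12.45 ± 0.14, Alas2, the erythroid first step of haem synthesis, was not called at 5.39 ± 0.01, and the later enzyme Cpox read 10.95, 10.92, 10.68, 10.06 and 8.83, with an SD of 0.89, or 0.41 without WT5. Transporters of glucose, lactate and amino acids were above in 17 of 22. The glutamine transporters Slc38a2 and Slc38a1 led at 13.00 ± 0.44 and 12.26 ± 0.14, and Slc7a11, the cystine importer, was below at 4.68. Enzymes of liver and other tissues, listed for contrast, were above in 3 of 22 cases, the highest being Fbp1 at 6.57 ± 0.11.

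Of the 100 brightest genes of the whole table, 87 were pseudogenes, predicted models or small RNAs, whose signals can include those of near-identical transcripts, 7 encoded ribosomal proteins and 6 were other named genes. The probeset named for Hspa8, the constitutive heat shock protein, was the brightest of all at 18.83 ± 0.09. Among named genes, the elongation factor Eef1a1 followed at 18.05 ± 0.04 and the mitochondrial oxidase subunit COX1 at 17.85 ± 0.23. Probesets named for chromatin, splicing and cytoskeletal genes such as Hnrnpa3, Snrpg, H2az1 and Tuba1c followed between 17.02 and 17.63. Those of Hspa8, Hnrnpa3, Snrpg and Tuba1c are numbered on chromosomes other than the genes' own. Their signals may be those of gene copies, which was not tested. The proliferation gene Mki67 averaged 15.87 ± 0.14, and all 15 measured mitosis genes were above background. Mitosis genes were highest in WT2 or WT3 in 15 of 15 cases, where those arrays held the highest value of 17.0% and 27.4% of all genes, with list deviations of 0.32 and 0.31 against -0.30 to -0.09 in the others.

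Genes of committed and mature cells were read next. Granule genes of neutrophils and monocytes were above background in 12 of 19 cases (63.2%), beside 50.9% of all genes, and 4 were below. Mpo, the myeloperoxidase, was the highest at 16.23, 16.52, 16.82, 16.55 and 16.66, and Mmp9, a gelatinase, was the lowest at 3.90. Of the calprotectin subunits, S100a8 read 5.31, 6.80, 8.83, 6.22 and 4.86 and was not called, and S100a9 was above background at 6.80 ± 1.08, with its highest value, 8.63, also in WT3. WT3 held the highest value of 14 of the 14 genes with a mean above background, beside 27.4% of all genes, and the list deviation was 0.92 in WT3 and between -0.58 and 0.12 in the other arrays. Mast cell, basophil and eosinophil genes were above in 14 of 16 cases. Prg2, an eosinophil granule protein, read 9.32, 10.66, 13.07, 12.35 and 8.04, and Prss34, a basophil protease, read 9.07, 11.09, 12.38, 11.71 and 7.60, both high in WT3 and WT4 and lowest in WT5. T and NK cell genes were above in 7 of 16 cases and B cell genes in 5 of 12, beside 50.9% of all genes. Their highest members reached 13.96 and 7.76, and Cd3d and Fcrla were not called either way. Of the T and NK cell genes, 2 were in the top 10% of all signals. Macrophage and dendritic cell genes were above in 5 of 15, with Cd68 highest at 11.10. Stromal and endothelial genes were above in 6 of 16, with Pdgfrb highest at 10.32.

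Interferon response genes were above background in 18 of 21 cases, with a median of 7.26, in mice injected with poly(I:C) weeks before. Irgm1, an interferon-inducible GTPase, read 8.52, 8.94, 9.41, 8.17 and 8.52. Ifi44l gave 4.61, 4.61, 8.91, 4.76 and 8.83, at background in 3 arrays and well above it in WT3 and WT5. The mean deviation of the list's 19 genes with a mean above background, Ifi44l included, was -0.09, -0.01, 0.25, -0.23 and 0.09 in WT1 to WT5. Without Ifi44l, a choice made after seeing the data, it was 0.08 in WT2, 0.12 in WT3, -0.16 in WT4 and -0.04 in WT5, so WT5 was above 0 only with that gene.

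Variation between the 5 mice was small for most genes. The median SD of genes with a mean above background was 0.18, and 188 of 16077 (1.17%) had an SD of 1 or more. Among these 188 were 100 immunoglobulin segments, 1 T cell receptor segment, 24 models, pseudogenes or small RNAs and 63 other genes. WT5 was the array farthest from the rest, on the low side, for 38 of the 63, and on the high side for 8. For the 100 immunoglobulin segments these counts were 3 and 4. The farthest array was not counted over all genes. Of all genes with a mean above background, WT5 held the lowest value of 35.6% and the highest of 21.3%. Without WT5, 23 of the 63 kept an SD of 1 or more, against 52 to 61 without any other array, and the count over all genes went from 188 to 137.

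**Figure D3:**
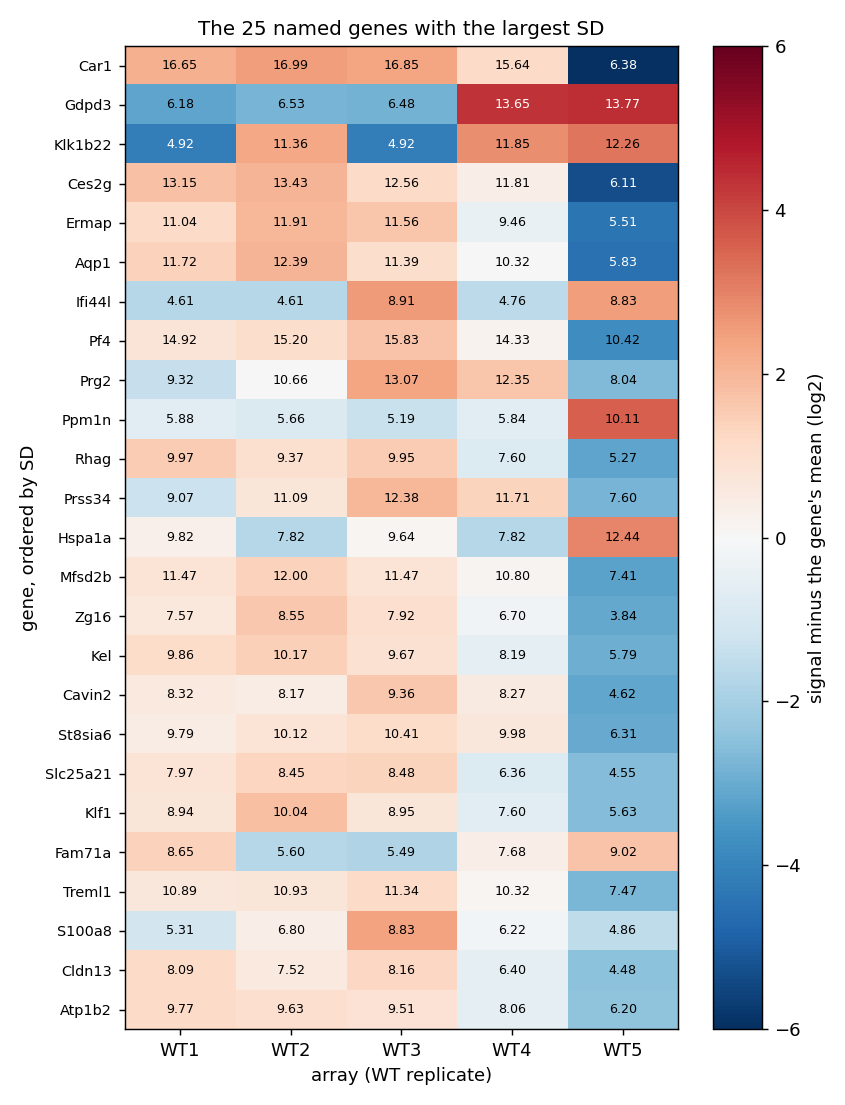
Signals (numbers, log2) of the 25 named genes with the largest SD (rows) in 5 WT arrays (columns), coloured by the difference from the gene's mean. Car1, Ces2g, Ermap, Aqp1, Pf4 and others are lowest in WT5, Ppm1n and Hspa1a are highest there, and Gdpd3 and Klk1b22 split the arrays into a high and a low set.

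Several erythroid genes differed widely among the mice. Car1, carbonic anhydrase 1 of red cells and their precursors, read 16.65, 16.99, 16.85, 15.64 and 6.38, so it ranked with the brightest genes in WT1 to WT4 and lay close to the background of 5.29 in WT5. Ermap, an erythroblast membrane protein, read 11.04, 11.91, 11.56, 9.46 and 5.51. Aqp1, the water channel of red cells, read 11.72, 12.39, 11.39, 10.32 and 5.83. In all of these WT5 was lowest and WT4 second lowest. The blood group genes Rhag, at 9.97, 9.37, 9.95, 7.60 and 5.27, and Kel, at 9.86, 10.17, 9.67, 8.19 and 5.79, had the same order at the low end, as had Klf1, the erythroid Krüppel-like factor, at 8.94, 10.04, 8.95, 7.60 and 5.63. The SD without WT5 was 0.61 for Car1 in place of 4.57, 1.08 for Ermap in place of 2.62, 0.86 for Aqp1 in place of 2.62 and 0.999 for Klf1 in place of 1.69. It was 1.12 for Rhag in place of 2.01 and 0.88 for Kel in place of 1.81. WT5 held the lowest value of 13 of the 14 erythroid genes with a mean above background, beside 35.6% of all genes. The list deviation was 0.72, 0.94, 0.78, -0.20 and -2.24 in WT1 to WT5. Of the 16 measured genes of the list 12 were above background and 2 below, among them Slc4a1, the band 3 anion exchanger, at 4.76 ± 0.01.

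Because Ermap, Aqp1 and Rhag move together among the arrays, the bases just before their starts are shown. CACCC boxes, sites of the kind that Krüppel-like factors bind, were searched as the letters CCACCC on both strands in the 250 bases before each start of the RefSeq annotation of GRCm38.p6. Of the 20 erythroid genes listed, 14 were matched in that table, whatever their signal or spread, and Car1 was not. The letters were found at 12 of 15 starts (80.0%) of the 14, beside 28.1% of 32851 starts of all genes. Of GATA sites only the letters AGATAA were searched, and they were found at 4 of the 15 (26.7%), beside 9.99%. Other forms of the GATA site were not counted or marked. Starts of 1 gene share sequence, and a match of letters is a description and not a binding site. Capitals mark the CACCC box, which reads GGGTGG where it lies on the opposite strand, and each run ends at the base before the start. Ermap lies at chr4:119189996-119190245 (minus strand), Aqp1 at chr6:55336049-55336298 (plus strand) and Rhag at chr17:40810899-40811148 (plus strand).
Ermap: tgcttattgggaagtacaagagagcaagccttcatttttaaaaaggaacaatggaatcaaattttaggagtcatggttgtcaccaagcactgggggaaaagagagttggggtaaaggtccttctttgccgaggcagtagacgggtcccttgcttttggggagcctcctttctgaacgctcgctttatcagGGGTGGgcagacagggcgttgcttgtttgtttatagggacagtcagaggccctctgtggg
Aqp1: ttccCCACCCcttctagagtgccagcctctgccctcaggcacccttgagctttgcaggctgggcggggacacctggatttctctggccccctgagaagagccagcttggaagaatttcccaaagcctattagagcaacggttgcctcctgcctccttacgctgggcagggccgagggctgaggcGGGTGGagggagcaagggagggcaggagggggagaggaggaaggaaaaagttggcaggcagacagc
Rhag: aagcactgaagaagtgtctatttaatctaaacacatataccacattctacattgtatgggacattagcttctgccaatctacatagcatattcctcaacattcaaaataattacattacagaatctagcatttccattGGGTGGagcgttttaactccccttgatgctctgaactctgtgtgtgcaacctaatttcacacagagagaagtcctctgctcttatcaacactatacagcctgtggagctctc

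The box begins 60 bases before the start of Ermap, 246 and 66 bases before that of Aqp1 and 112 bases before that of Rhag. For the immediate early factors, the serum response element known as the CArG box was found at 5 of 21 starts (23.8%), beside 1.47% of all starts. Their starts held the CACCC letters in 9 of 21 cases (42.9%), and those of the megakaryocyte and platelet genes in 4 of 14 (28.6%), beside the same 28.1% of all starts.

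Platelet genes followed the erythroid genes in WT5. Pf4, the platelet factor 4 chemokine, read 14.92, 15.20, 15.83, 14.33 and 10.42, Treml1, a receptor of platelet granules, read 10.89, 10.93, 11.34, 10.32 and 7.47, and Vwf, the von Willebrand factor of platelets and endothelium, read 7.69, 7.91, 8.19, 7.69 and 5.83. WT5 was lowest for 14 of the 14 megakaryocyte and platelet genes with a mean above background, beside 35.6% of all genes. The list deviations were 0.34, 0.36, 0.57, -0.02 and -1.24 in WT1 to WT5. Without WT5 the SD of Pf4 was 0.62 in place of 2.15, that of Treml1 0.42 in place of 1.56 and that of Vwf 0.24 in place of 0.94. Gfi1b, a repressor shared by erythroid and megakaryocyte precursors, read 10.99, 10.94, 10.94, 9.81 and 8.81. Mfsd2b, a sphingolipid exporter of red cells and platelets, read 11.47, 12.00, 11.47, 10.80 and 7.41. Without WT5 the SD of Gfi1b was 0.57 in place of 0.97 and that of Mfsd2b 0.49 in place of 1.85. The stem and progenitor factor list, which holds Gfi1b, deviated by 0.08 in WT5 and by no more than 0.09 in either direction in the other arrays. Its members went both ways in WT5, which held the highest value of 12 and the lowest of 5 of the 24 genes with a mean above background, beside 21.3% and 35.6% of all genes. Without Gfi1b, a choice made after seeing the data, the list deviated by 0.15 in WT5 and between -0.13 and 0.06 in the others.

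**Figure D4:**
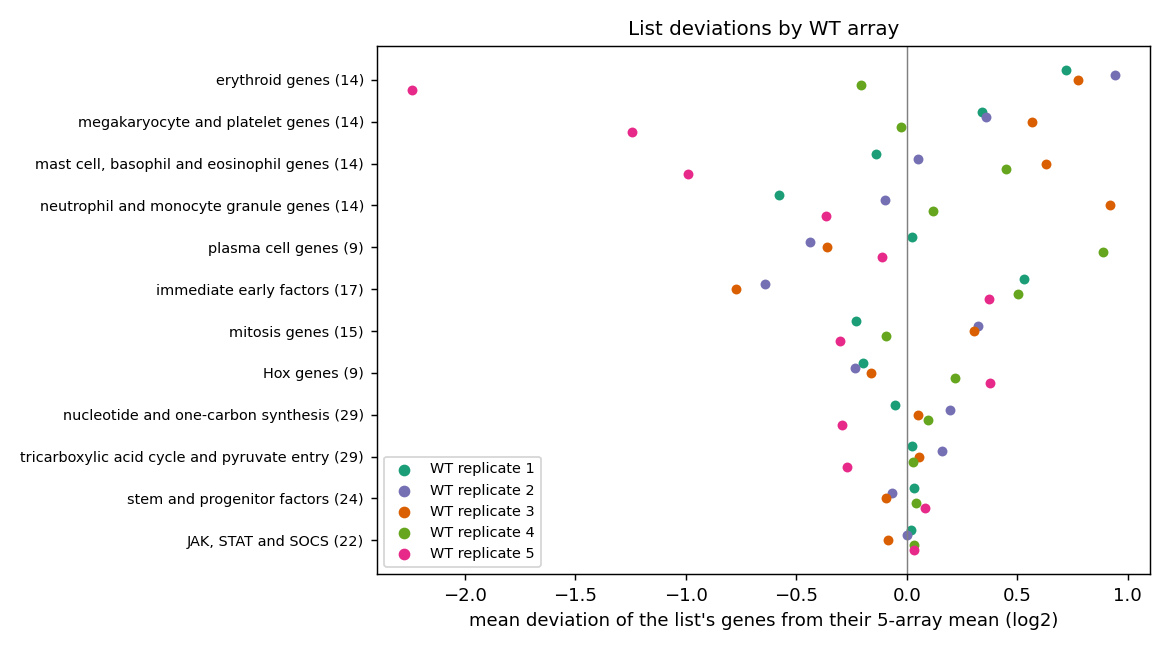
Mean deviation of each list's genes from their own 5-array mean (x axis, log2) by WT array, with the number of genes with a mean above background in brackets. Erythroid genes run from 0.94 in WT2 to -2.24 in WT5, neutrophil and monocyte granule genes stand out in WT3 at 0.92, plasma cell genes in WT4 at 0.89, and JAK, STAT and SOCS genes stay between -0.08 and 0.03.

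Immunoglobulin genes varied in another way. Of 199 variable segments of the heavy and light chains, 129 (64.8%) were above background by limma, beside 50.9% of all genes. Per array, 158, 141, 147, 169 and 152 exceeded it in WT1 to WT5, and the median segment signals were 6.86, 6.15, 6.59, 8.29 and 6.58. WT4 held the highest value of 97 of the 163 segments with a mean above background and WT2 the lowest of 90. Over all genes with a mean above background those shares were 16.3% and 14.4%. Single segments were bright in some mice and at background in others: Ighv3-5 read 13.12, 5.65, 9.92, 5.10 and 4.58, and Igkv5-43 read 5.34, 8.97, 7.36, 13.55 and 5.63. Jchain, the joining chain of secreted IgM and IgA, read 11.92, 9.92, 10.44, 13.83 and 11.24, and Mzb1, a chaperone of antibody-secreting cells, read 6.14, 5.38, 5.89, 8.01 and 6.04. Ighm, the IgM heavy chain constant gene, which is transcribed early in B lineage cells, read 16.79, 15.82, 16.31, 17.50 and 17.00. WT4 was highest for 7 of 9 plasma cell genes, beside 16.3% of all genes. Segments resemble each other in sequence, so the signal of 1 segment can include its relatives. Without WT4, 60 of the 100 variable segments kept an SD of 1 or more, and 96 did without WT5.

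A few genes split the mice into a low and a high set with nothing between. Gdpd3, a lysophospholipase D, read 6.18, 6.53, 6.48, 13.65 and 13.77. Klk1b22, a kallikrein, read 4.92, 11.36, 4.92, 11.85 and 12.26. The gap between the sets was 7.12 for Gdpd3 and 6.44 for Klk1b22, against a widest spread inside a set of 0.35 and 0.90. The high mice differed between them, WT4 and WT5 for Gdpd3 and WT2, WT4 and WT5 for Klk1b22, and Ifi44l was high in WT3 and WT5. Ppm1n, a phosphatase gene, was high in WT5 alone at 10.11, against 5.19 to 5.88 in the other 4, and the inducible heat shock gene Hspa1a was highest there at 12.44, against 7.82 to 9.82. Without WT5 the SD of Ppm1n was 0.32 in place of 2.02, that of Hspa1a 1.11 in place of 1.90 and that of Ces2g, a carboxylesterase gene lowest in WT5, 0.72 in place of 3.03.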

How the data were processed

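The values are the authors' deposited log2 signals, 1 per probeset and array, made with Partek 6.6 per the submitters' processing notes. Log base, background correction and normalization: not given in the sources used. The log2 scale was read from the values. The 5 columns titled Abi-1 WT were mapped by title. Of 65956 target probesets, 30604 carried 1 symbol, 2146 several and 33206 none in the platform annotation, 827 symbols being updated through Entrez identifiers to RefSeq of GRCm38.p6. The brightest probeset by WT mean stood for each of 30142 genes. The number of arrays limits the precision, and 1245 genes hold 1 value in all 5 arrays, which makes their spread too small.

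Signal minus each array's background was tested against 0 with limma 3.58.1 in R 4.3.3 (intercept, eBayes, two-sided, Benjamini-Hochberg over all genes, threshold 0.05), after a check on simulated data. Levels, SDs and list deviations are descriptions with no test, and variable genes have an SD of 1 or more. In the text, ± is an SD with n = 5 unless given as SE. Members and lists were chosen with earlier results of these data known. The counts of 1 signalling list, kept in its class total, are not reported here. Genes were named, though not in every case, from the 3 highest and 2 lowest members of each list, the 20 brightest and 25 most variable named genes (pseudogenes, models, small RNAs, ribosomal and antigen receptor segments apart), the 2 most variable of each list of other cells, the gate and sex-linked genes. Other genes, segments and contrasts between arrays were picked after their values were seen. Alternatives changed the background reference and percentile, normalization, probeset rule, eBayes trend, SD threshold and arrays used.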

Additional observations from a re-analysis of the deposited data

Results flagged for a closer look

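For each of 213 named genes and list deviations, the array farthest from the others was compared by its gap to the nearest other array as a share of the whole range of the 5 arrays, and 40 shares passed 0.71, the critical value for 5 samples. Chance flags about 1 in 20 groups, a rate that does not apply to genes chosen here for their large SD, such as Car1, Ces2g, Pf4, Ppm1n, Mfsd2b and Treml1, or to genes with 1 value in several arrays.

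WT5 was the low array for erythroid and platelet genes. The share was 0.873 for Car1, 0.723 for Pf4, 0.736 for Treml1, 0.788 for Vwf and 0.739 for Mfsd2b. It was also the low array for Ces2g, a carboxylesterase, with a share of 0.779, for Sod1 with 0.815, Ifngr1 with 0.753 and Cd63 with 0.736. Sod1 spans only 17.09 to 17.36. WT5 was the high array for Ppm1n with a share of 0.86, Cd47 with 0.875 and Fbp1 with 0.923. It was high for the Y-linked Uty and Eif2s3y with 0.733 and 0.771, and for the deviation of the sex-linked list with 0.757. All 3 Y-linked genes of that list were highest in WT5, beside 21.3% of all genes with a mean above background.

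WT4 was the high array for Cpt1a with a share of 0.732, Jak1 with 0.778, the B lineage genes Mzb1 and Fcrla with 0.711 and 0.731, and for the deviation of the integrins and adhesion receptors with 0.718. It was the low array for H2az1 with 0.75 and Scd1 with 0.762. WT3 was the low array for Kit with 0.795, Hnrnpa3 with 0.786 and Tpi1 with 0.727. WT1 was the low array for Fes with 0.766 and the high one for Tal1 with 0.765.

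Some genes named above also hold 1 identical value in several arrays, among them Cd47, H2az1, Eif2s3y, Cpt1a and Fbp1. Cd47 and H2az1 each span only 0.08, and Scd1 averages 5.34, close to background. The other shares belong to genes near or below background, where several arrays hold one identical value. They were 0.794 for Batf3, 0.833 for Hoxb13 and 0.714 for Slc7a11 in WT3, and 0.952 for Tktl2 in WT4. The share was 1.0 for Alas2, Bmpr1a, Musk, Ntrk2, Ppara, Slc4a1, Sox17, Sox2 and Tlr8, in which 4 arrays gave the same value.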

How the results depend on the processing

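The 15331 genes above background became 16894 and 12440 with the percentile 90 and 99 of the receptor genes, 15331 and 15344 with arrays centred on their median and quantile normalized, 15309 with the mean of a gene's probesets, 15375 with an eBayes trend, 15210 as genes above in all 5 arrays with no test, and 15180 to 15237 with 1 array left out. With negative control probesets as background the count was 2021, and the class counts were 14 for transcription factors, 11 for surface receptors, 29 for signalling and 31 for metabolism. With 1 array left out they ranged over 83 to 85, 104 to 105, 150 to 151 and 177 to 177. The 188 variable genes became 187 and 193 with centred and quantile normalized arrays, 341 and 87 with an SD threshold of 0.75 and 1.5, 191 and 192 with a weaker or no low value filter, and 137 to 212 with 1 array left out, the 137 without WT5. Leaving out immunoglobulin and T cell receptor segments, a choice made after seeing the data, gave 87.

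With negative control probesets as background, a level of 10.78 to 12.27, 44 of 168 named genes changed from above to below it. Their log2 differences were then -0.020 for Igf1r, -0.070 for Xbp1, -0.28 for Dntt, -0.32 for Csf3r, -0.46 for Itga5, -0.48 for Gata2, -0.58 for Prg2, -0.64 for Mfsd2b, -0.76 for Tnfaip3, -0.90 for Prss34, -0.94 for Aqp1, -0.95 for Pdgfrb, -0.97 for Gfi1b, -0.98 for Cpox, -1.02 for Il6st, -1.05 for Slamf1, -1.08 for Treml1, -1.37 for Ermap, -1.54 for S1pr4, -1.76 for Hspa1a, -1.81 for Klf2, -1.95 for Gdpd3, -2.02 for Uty, -2.13 for Eif2s3y, -2.21 for Klk1b22, -2.24 for Tal1, -2.32 for Kdm5d, -2.42 for Epor, -2.53 for Kel, -2.56 for Irgm1, -2.84 for Rhag, -2.86 for Hoxa6, -3.04 for Klf1, -3.21 for Hnf4a, -3.39 for Aldh1a1, -3.79 for Hoxa5, -3.80 for Itgam, -3.81 for Vwf, -4.12 for Gab1, -4.47 for S100a9, -4.55 for Hoxa2, -4.70 for Fbp1, -4.86 for Gata1 and -4.98 for Mzb1. With the percentile 90, Batf3 at 0.13, Prom1 at 0.037 and Socs1 at 0.035 changed from below to above. Among named genes, leaving out 1 array ended the call of Batf3, Gdpd3, Klk1b22 or Mzb1, while Gfi1 was called above without WT2 and Cd3d below without WT1. No paired analysis was possible because only 1 group was used. A signal close to background limits what can be said of low genes, and 5 arrays limit every SD.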
